A study of Rattus norvegicus with 8 samples.

Results

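The 4 sensory neuron receptor genes described here are Mrgprb5, Mrgprx1 and Mrgprd of the Mas-related G protein-coupled receptor family and F2rl1, which encodes the protease-activated receptor PAR2. The genes were chosen by their signal on these arrays, on the log2 values of the 3 groups given below, so those values are a description. Their probes were found by matching the RefSeq accession of each probe to the gene, which gave 5 probes, with 2 for Mrgprx1 and 1 for each of the others, out of 30367 probes and 15154 named genes. Cultures of dissociated dorsal root ganglia, the sensory ganglia beside the spinal cord, came from Wistar rats aged 0 to 5 days of both sexes. After 2 to 3 days in vitro, 100 ng/ml of a human protein was added and kept on for 5 days, in serum-free medium with 5-fluoro-2′-deoxyuridine, an agent against dividing cells, and uridine. The protein was the P61S/R100E double mutant (n = 3 arrays), the P61S single mutant (n = 3 arrays) or the wild type (n = 2 arrays). Untreated cultures were not analysed here. Nothing in the labels tells if the replicates are different cultures or animals, so errors and p-values cover the spread among these 8 arrays alone, which may be technical. The arrays read RNA of all cells of a culture, so fewer neurons of a type and less RNA per neuron cannot be told apart.

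Mas-related receptors form a large family of G protein-coupled receptors found mostly in small-diameter sensory neurons, where several of them respond to itch-inducing peptides and amino acids. Rat Mrgprx1, also called MrgC, responds to fragments of proenkephalin, and Mrgprd is the receptor for beta-alanine and in mouse marks the non-peptidergic nociceptors that end in the epidermis. PAR2 works differently: a protease such as trypsin or mast cell tryptase cleaves its outer end, and the new end folds back and activates the receptor. In sensory neurons PAR2 signals through Gq and is known to sensitize the channels TRPV1 and TRPA1, and it takes part in protease-evoked pain and itch.

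Mrgprx3, Mrgprx1, Mrgprb4 and Mrgprb5 follow each other in this order on rat chromosome 1, and F2rl1 lies on chromosome 2 with F2r close by. Of the 4 receptor genes, 2 matched the RefSeq table of gene start regions on build GRCr8, each window holding 250 bases before and 50 after the annotated start. The windows of Mrgprb5 (chr1:107095192-107095491, plus strand) and Mrgprx1 (chr1:106943265-106943564, minus strand) are printed because both genes read lower with P61S/R100E. Those of the neighbours Mrgprb4 (chr1:106989869-106990168, minus strand) and Mrgprx3 (chr1:106883096-106883395, minus strand) are printed for comparison, since the groups overlapped for Mrgprb4 and did not for Mrgprx3. Each is written 5′ to 3′ along the gene, with capitals for the core letters bound by RUNX factors, TGTGGT or, on the other strand, ACCACA.
Mrgprb5: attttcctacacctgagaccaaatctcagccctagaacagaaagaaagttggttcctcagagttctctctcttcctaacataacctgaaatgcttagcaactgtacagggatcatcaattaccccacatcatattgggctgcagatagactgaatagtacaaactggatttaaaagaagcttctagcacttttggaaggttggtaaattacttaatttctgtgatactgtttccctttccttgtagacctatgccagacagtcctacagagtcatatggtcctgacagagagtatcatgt
Mrgprb4: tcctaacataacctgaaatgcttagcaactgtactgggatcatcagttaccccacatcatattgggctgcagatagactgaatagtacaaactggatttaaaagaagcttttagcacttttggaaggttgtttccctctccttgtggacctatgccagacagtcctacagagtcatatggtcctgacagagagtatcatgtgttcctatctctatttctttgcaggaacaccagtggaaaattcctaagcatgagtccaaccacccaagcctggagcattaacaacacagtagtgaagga
Mrgprx1: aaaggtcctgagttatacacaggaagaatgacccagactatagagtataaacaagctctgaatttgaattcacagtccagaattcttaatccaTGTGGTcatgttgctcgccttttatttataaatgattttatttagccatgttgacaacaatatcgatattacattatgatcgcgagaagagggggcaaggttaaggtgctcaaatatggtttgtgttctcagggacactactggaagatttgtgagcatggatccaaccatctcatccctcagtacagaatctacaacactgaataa
Mrgprx3: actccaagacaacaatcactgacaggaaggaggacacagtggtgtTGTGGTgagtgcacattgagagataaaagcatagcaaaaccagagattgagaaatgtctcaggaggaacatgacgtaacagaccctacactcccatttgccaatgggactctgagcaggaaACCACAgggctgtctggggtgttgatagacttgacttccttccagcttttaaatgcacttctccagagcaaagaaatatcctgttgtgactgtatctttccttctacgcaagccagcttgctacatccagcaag

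Runx1 is the RUNX factor that mouse non-peptidergic neurons need to express Mas-related receptors. The core letters occurred once in the Mrgprx1 window, at window position 94, and 2 times in the Mrgprx3 window, at positions 46 and 167. They did not occur in the windows of Mrgprb5 or Mrgprb4. Of all 33469 start regions of the same length 17.3% held them, and 6 of the 17 windows of the Mas-related and protease-activated receptor families did, so a match is a description of these letters only. The Mrgprb5 and Mrgprb4 windows shared 196 of 201 aligned bases, set off by 198 unaligned positions, while Mrgprb5 and Mrgprx1 shared 156 of 273. In the windows of Mrgprb5, Mrgprx1 and Mrgprb4 the annotated start is an ATG, so these gene models may begin at the coding sequence, with a transcription start that lies elsewhere. Whether a probe for 1 of these related genes also binds RNA of another was not tested, as the probe sequences were not used here.

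The values below are log2 of the scanner's processed signal minus log2 of the 75th percentile of the same array. They compare samples for a given probe and do not rank genes against each other. Across the 8 arrays, which lay on 1 slide with 1 scan, the 75th percentile of the signal ran from 3267 to 5269, and 78.7% to 88.8% of the spots were well above background, the scanner software's call of detection. Wild type replicate 2 stood apart, with correlations across tested probes of 0.983 to 0.989 with the other arrays, and slide column 4 held the wild type arrays and no others. P61S lay in columns 1 and 2 and P61S/R100E in columns 2 and 3, so column and protein form cannot be told apart in any comparison except between 1 P61S/R100E and 1 P61S array in column 2. Markers of neurons, glia, Schwann cells and fibroblasts were detected. Of the markers on the array 14 of 14 pan-neuronal ones could be tested, against 4 of 7 endothelial and 6 of 9 mast cell markers.

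F2rl1, the PAR2 gene, read lower with P61S/R100E than with either other form. On probe A_64_P087424 (accession NM_053897) its log2 signal was -3.22, -2.93 and -3.11 on the 3 P61S/R100E arrays. It was -2.41, -2.36 and -2.40 on the P61S arrays and -2.34 and -2.40 on the wild type arrays. All 3 P61S/R100E arrays lay below every other array, while P61S and wild type overlapped. The mean level was -3.08 ± 0.15 (SD, n = 3) for P61S/R100E, -2.39 ± 0.03 (SD, n = 3) for P61S and -2.37 ± 0.04 (SD, n = 2) for wild type.

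The limma fit put F2rl1 1.62-fold lower with P61S/R100E than with P61S (log2 change -0.69, SE 0.0938, 95% bounds -0.92 and -0.47). Against wild type it was 1.64-fold lower (-0.72, SE 0.105, 95% bounds -0.96 and -0.47), with the same P61S/R100E arrays in both comparisons. P61S and wild type differed by -0.02 (SE 0.105, 95% bounds -0.27 and 0.23), which is within the spread of the arrays. Before scaling, the processed signals were 403, 692 and 519 with P61S/R100E, 974, 768 and 902 with P61S, and 993 and 619 with wild type. The unscaled signals of P61S/R100E and wild type thus overlapped, and they no longer overlapped after division by the 75th percentile, which was lowest for wild type replicate 2. The 2 spots of this probe on an array differed by at most 0.12 (log2).

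Over all 23585 tested probes limma called 0 (0.0%) at an adjusted p under 0.05 in each of the 3 comparisons, so no receptor probe passed. With no adjustment, 946 probes (4.01%) had a p under 0.05 for P61S/R100E against P61S, 1188 (5.04%) for P61S/R100E against wild type and 489 (2.07%) for P61S against wild type. Of the 4 tested receptor probes, P61S/R100E lay below P61S without overlap on 3, where 8.23% of all tested probes did, and below wild type on 4, where 9.2% did. The dimmer Mrgprx1 probe, 1 of the 4, was tested through wild type alone, the group where it read highest, so its place below wild type is no support. A log2 change of -0.5 or below was found for F2rl1 and Mrgprb5 against P61S (2.97% of all tested probes), and for these and the brighter Mrgprx1 probe against wild type (7.75%). P61S lay below wild type without overlap on 0 of the 4 and above it on 0, beside 9.23% and 7.39% of all tested probes. The receptors were chosen on these contrasts, and nothing is read from their counts. Of all tested probes 1.46% had a change against P61S at or below that of F2rl1, and 1.03% at or below that of Mrgprb5 with its outlier spot left out. For the brighter and dimmer Mrgprx1 probes the shares were 3.35% and 9.04%. Against wild type they were 2.58% for F2rl1, 2.15% for Mrgprb5, and 1.59% and 8.55% for Mrgprx1. These ranks come from the contrasts used for the choice, so nothing is read from them either.

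**Figure D1:**
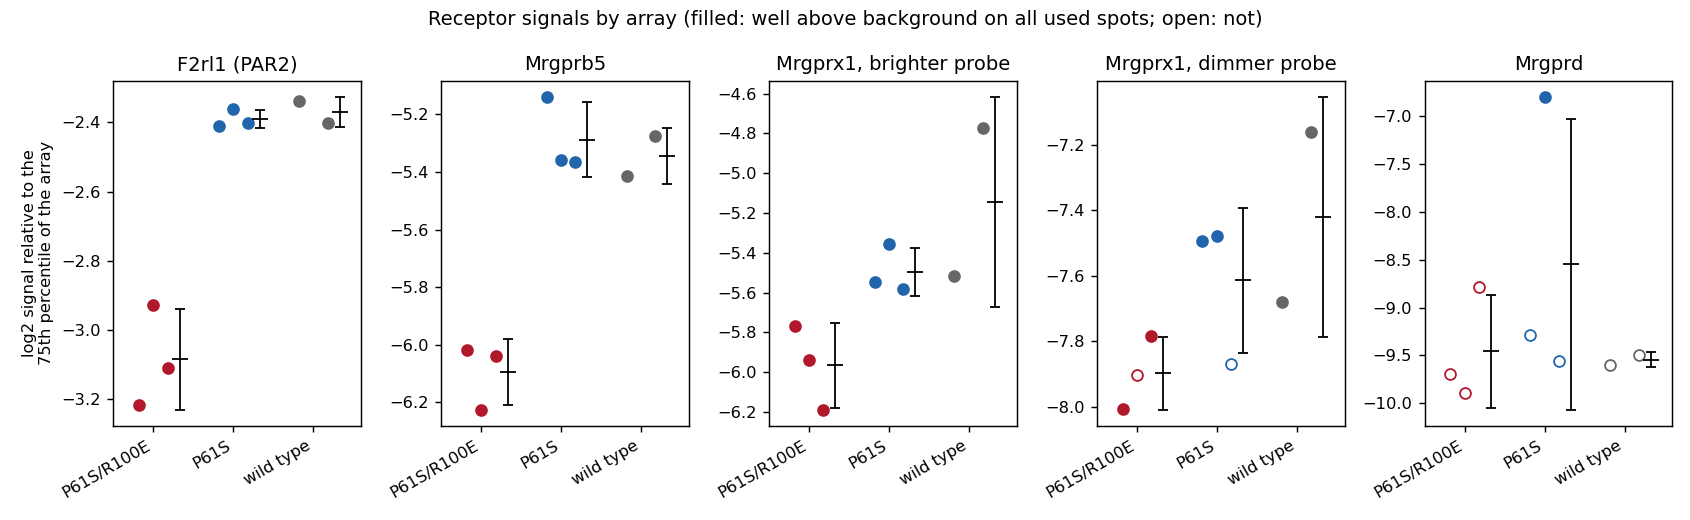
Log2 signal relative to the 75th percentile of the array for each receptor probe, with 1 point per array, grouped as P61S/R100E, P61S and wild type, and the mean with its SD at the right of each group. For F2rl1 and Mrgprb5 the 3 P61S/R100E points lie below all others, while most Mrgprd points are open, which marks arrays not well above background.

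Mrgprb5, a Mas-related receptor gene of rodents, had a larger difference from P61S than F2rl1 with the outlier spot described below left out, and a smaller one with it kept or under normexp. On probe A_64_P047957 (NM_001002284) its log2 signal was -6.02, -6.23 and -6.04 on the P61S/R100E arrays. It was -5.14, -5.36 and -5.37 on the P61S arrays and -5.41 and -5.28 on the wild type arrays. Here too the P61S/R100E arrays lay below all 5 others, and P61S and wild type overlapped. The change was -0.81 (SE 0.105, 1.75-fold lower, 95% bounds -1.06 and -0.56) against P61S and -0.75 (SE 0.117, 1.68-fold lower, 95% bounds -1.03 and -0.47) against wild type. P61S minus wild type was 0.06 (SE 0.117, 95% bounds -0.22 and 0.34), within the spread.

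The size of the Mrgprb5 difference rests on how 1 spot is treated. The probe has 2 spots per array, both well above background on all 8 arrays, and on P61S/R100E replicate 1 they read 57.7 and 363 in processed signal, a gap of 2.65 (log2). The scanner software marked the brighter of them as an outlier, and it was left out above. It is the only spot of the 5 receptor probes so marked on any array. With it kept, the difference was -0.37 against P61S (SE 0.379) and -0.31 against wild type (SE 0.424), and the deposited values gave -0.37 (SE 0.371) and -0.30 (SE 0.415). Without the whole array the difference was -0.85 (SE 0.121) and -0.79 (SE 0.132), and the 4 spots of the other P61S/R100E arrays, at -6.38 to -5.97, all lay below the 10 spots of the P61S and wild type arrays. The lowest of those 10 was at -5.56, on P61S replicate 1, whose 2 spots also differed widely.

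**Figure D2:**
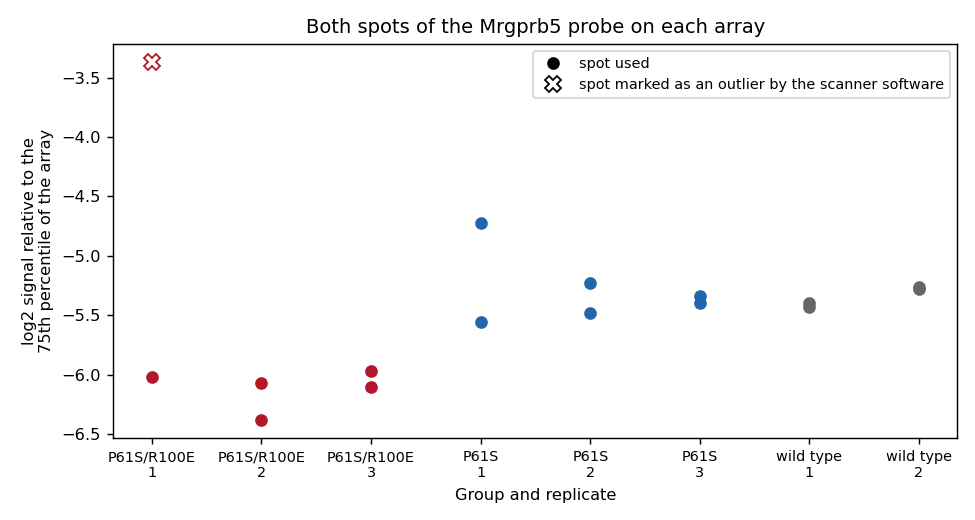
Log2 signal of both Mrgprb5 spots on every array, relative to the 75th percentile of the array, with group and replicate along the horizontal axis. The 5 spots used with P61S/R100E lie between -6.38 and -5.97, while the open cross, the spot marked as an outlier, lies at -3.37 above all the others.

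Mrgprx1, the proenkephalin peptide receptor, was measured by 2 probes, with wider errors. On the brighter probe, A_64_P000192 (NM_172158), the log2 signal was -5.77, -5.94 and -6.19 with P61S/R100E. It was -5.55, -5.36 and -5.58 with P61S, and -5.52 and -4.77 with wild type. P61S/R100E lay below all other arrays, and P61S overlapped with wild type. The difference was -0.47 against P61S (SE 0.207, 95% bounds -0.96 and 0.02), an interval that includes 0, and -0.82 against wild type (SE 0.231, 95% bounds -1.37 and -0.27).

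The highest Mrgprx1 signal was that of wild type replicate 2, which also stood apart overall. Without it the Mrgprx1 difference was -0.45 (SE 0.188), close to that against P61S, and without wild type replicate 1 it was -1.19 (SE 0.187), each time with 1 wild type array whose spread is assumed to be that of the other groups. P61S minus wild type was -0.35 (SE 0.231, 95% bounds -0.90 and 0.20) with both wild type arrays and 0.02 (SE 0.188) without replicate 2. On the dimmer probe, A_64_P159190, which was well above background on 6 of 8 arrays, P61S/R100E gave -8.01, -7.90 and -7.78, P61S -7.49, -7.48 and -7.87 and wild type -7.68 and -7.16. Only in wild type, the group with the highest mean, was every array well above background, so this probe was tested through wild type alone. P61S/R100E and P61S overlapped on this probe (-0.28, SE 0.171, 95% bounds -0.69 and 0.12), while P61S/R100E lay below both wild type arrays (-0.48, SE 0.191), a value of -0.74 without wild type replicate 1 and -0.22 (SE 0.191) without replicate 2. With normexp background correction and quantile normalization the dimmer probe gave 0.00 in both comparisons, and the brighter one -0.23 (SE 0.107) against P61S and -0.44 against wild type.

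Mrgprd, the beta-alanine receptor, was close to or below background in these cultures. Its probe A_64_P085481 (NM_001001506) was well above background on both spots of only 1 of 8 arrays, P61S replicate 2, and was not tested. Its log2 signal was -9.70, -9.89 and -8.78 with P61S/R100E, -9.28, -6.79 and -9.56 with P61S, and -9.59 and -9.49 with wild type. The 3 groups overlapped, and no fold is given because no group was well above background on all of its arrays. The 2 Mrgprd spots of 1 array differed by up to 2.96 (log2), against a median gap of 0.0089 for F2rl1, 0.19 for Mrgprb5 and 0.15 for the brighter Mrgprx1 probe. P61S replicate 2, the one array with both Mrgprd spots above background, was also the highest array for Mas1, Mas1l, Mrgprb13, Mrgprx2 and Mrgprx2l, probes likewise not tested. The part of that array in the Mrgprd signal was not tested.

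Among the 13 other genes of the 2 receptor families, 7 had a probe that could be tested. Mrgprx3, the next gene beside Mrgprx1, and F2rl2, the gene of the thrombin-cleaved receptor PAR3, gave scaled P61S/R100E signals below all other arrays. Before scaling, Mrgprx3 signals of 900, 1335 and 1241 with P61S/R100E overlapped with wild type, at 1757 and 971. For Mrgprx3 (A_64_P034064) the log2 signal was -2.06, -1.98 and -1.85 with P61S/R100E, -1.37, -1.44 and -1.41 with P61S, and -1.52 and -1.76 with wild type. The wild type arrays lay between the other groups, and the order was P61S/R100E, wild type, P61S without overlap. Its change was -0.56 against P61S (SE 0.0973, 1.47-fold lower, limma adjusted p = 0.384) and -0.32 against wild type (SE 0.109, 1.25-fold lower, limma adjusted p = 0.746), and P61S minus wild type was 0.23 (SE 0.109, limma adjusted p = 0.999). None of these passed. Against wild type the Mrgprx3 change was -0.20 without wild type replicate 1, -0.45 without replicate 2 and -0.12 under normexp. P61S minus wild type was 0.36, 0.11 and 0.38 in the same order.

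For F2rl2 (A_44_P306344) the log2 signal was -2.17, -2.13 and -2.20 with P61S/R100E, -1.86, -1.76 and -1.90 with P61S, and -1.83 and -1.77 with wild type. P61S and wild type overlapped, as for F2rl1. Before scaling, F2rl2 signals of 833, 1202 and 976 with P61S/R100E overlapped with P61S (1424, 1164 and 1277) and wild type (1413 and 957). The change was -0.32 against P61S (SE 0.0757, 1.25-fold lower, limma adjusted p = 0.741) and -0.37 against wild type (SE 0.0847, 1.29-fold lower, limma adjusted p = 0.746). Of the 8 tested probes of these other family genes, 2 lay below all P61S and wild type arrays on P61S/R100E and 0 lay above, where 3.14% and 2.37% of all tested probes did. The same held for 3 of the 4 tested probes of the receptors described, from which nothing is read because they were chosen for it. The families were listed with earlier results known, so these counts are a description.

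The remaining tested family genes overlapped between P61S/R100E and P61S. F2r, the thrombin receptor PAR1, differed by 0.00 (SE 0.104) and -0.01 (SE 0.239) on its 2 probes against P61S. Mrgprb4, which in mouse marks touch-sensing skin afferents, differed by -0.10 (SE 0.143, 95% bounds -0.44 and 0.24). Mrgprf differed by -0.12 (SE 0.129, 95% bounds -0.42 and 0.19). Mrgpre differed by -0.29 (SE 0.529) and Mrgprg by 0.40 (SE 0.339), with intervals from -1.54 to 0.97 and from -0.40 to 1.20. Over the 8 probes of the other family genes the median change was -0.11 against P61S and -0.31 against wild type, beside -0.02 and -0.06 over all tested probes.

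F2rl3, the gene of PAR4, Mas1, Mas1l, Mrgprb13, Mrgprx2 and Mrgprx2l were too dim to be tested. The probe of Mrgprx2, whose human counterpart is the peptide receptor of mast cells, read -9.01, -9.74 and -9.36 with P61S/R100E, -8.09, -8.07 and -8.30 with P61S, and -8.49 and -8.34 with wild type. The P61S/R100E arrays read lowest, but only 1 of 8 arrays was well above background, so no fold is given. Mas1, well above background on 0 of 8 arrays, also read lowest on the P61S/R100E arrays, at -10.53, -9.98 and -9.80, against -9.09, -6.63 and -9.65 with P61S and -9.11 and -9.34 with wild type.

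**Figure D3:**
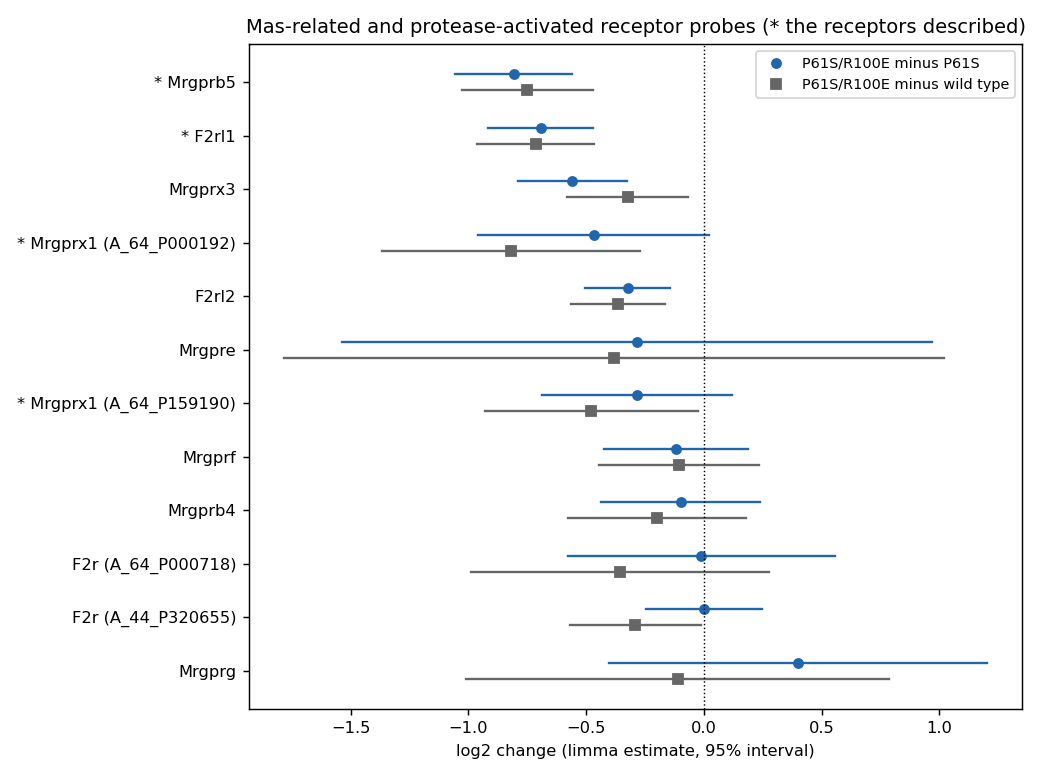
Log2 changes of the 12 tested probes of both receptor families, P61S/R100E minus P61S as circles and P61S/R100E minus wild type as squares, with 95% intervals from limma as lines and asterisks for the receptors described. The receptors described were chosen on these contrasts, so their intervals are a description and no test, and those of Mrgprb5 leave out its outlier spot. The intervals of Mrgpre and Mrgprg are the widest.

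Within slide rows and within column 2, F2rl1 and Mrgprb5 were lower with P61S/R100E each time. P61S/R100E lay below all other arrays for these and the brighter Mrgprx1 probe, so the sign within a row or column was fixed. The sizes are a description. In slide row 1, with 1 P61S/R100E and 2 P61S arrays, F2rl1 differed by -0.83, and in row 2, with 2 and 1, by -0.62. Mrgprb5 differed by -0.77 in each row. Slide column 2 held 1 P61S/R100E and 1 P61S array, which differed by -0.57 for F2rl1 and by -0.87 for Mrgprb5. Against wild type the rows gave -0.88 and -0.62 for F2rl1 and -0.60 and -0.86 for Mrgprb5. The brighter Mrgprx1 probe gave -0.31 and -0.48 against P61S and -0.25 and -1.29 against wild type, the last in the row of wild type replicate 2. On the dimmer Mrgprx1 probe the rows disagreed against P61S, at -0.52 and 0.03.

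The genes with the most similar signal differed between the receptors, except that Calb2 was shared by F2rl1 and Mrgprb5. Over the 8 arrays the signal of F2rl1 had its highest Pearson correlations with Cldn3, a tight junction claudin (r = 0.988), Ctdspl, a phosphatase gene (r = 0.987), Olfm3, a secreted olfactomedin (r = 0.980), Calb2, the calretinin gene (r = 0.978), and Crtac1 (r = 0.977), out of 12147 other genes. Crtac1 differed by -0.75, Cldn3 by -0.64, Olfm3 by -0.64 and Calb2 by -0.69 (log2) between P61S/R100E and P61S, and Ctdspl by -0.12. Mrgprb5 was closest to Kyat3, a kynurenine aminotransferase (r = 0.977), Psrc1 (r = 0.971), Icmt, which methylates prenylated proteins (r = 0.964), Sting1, a sensor of cyclic dinucleotides (r = 0.963), and again Calb2 (r = 0.961). Mrgprx1 was closest to Nrg1, the neuregulin 1 gene (r = 0.996), Traf4 (r = 0.984), Phkg2 (r = 0.978), C1ql1 (r = 0.978) and Rcan2 (r = 0.977). Among the receptors themselves r was 0.908 for F2rl1 and Mrgprb5, 0.708 for F2rl1 and Mrgprx1, 0.739 for Mrgprb5 and Mrgprx1, and 0.961 for F2rl1 and F2rl2. All points share the same 8 arrays, their scaling and the same 3 groups, so these values describe likeness only.

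A list of PAR-activating and itch proteases, which also holds the tissue factor gene F3, was next examined. Of its 28 genes on the array 15 could be tested, and not all of them are known to act on PAR2. Of the 15 tested genes of this list 0 passed over all probes. In P61S/R100E against P61S 0 were lower and 2 higher without overlap, where 8.23% of all tested probes were lower and 5.75% higher. The 2 were Furin, a proprotein convertase (0.19, SE 0.0727), and F3, the tissue factor gene (0.07, SE 0.0769). Against wild type 1 was lower and 3 were higher without overlap, beside 9.2% and 5.86% of all tested probes. The lower one was the mast cell tryptase gene Tpsb2 (-0.28, SE 0.21). Among the higher ones were Prtn3, a neutrophil serine protease (0.36, SE 0.126), and Ctss, the gene of cathepsin S, an itch-inducing protease (0.20, SE 0.0959). The list median was 0.05 against P61S and 0.02 against wild type. Of 13 protease inhibitors 3 were lower and 3 higher against P61S without overlap, beside 8.23% and 5.75% of all tested probes. They include Slpi, a secreted leukocyte protease inhibitor (-0.36, SE 0.22), and A2m, the alpha-2-macroglobulin gene (0.31, SE 0.129), and 0 passed over all probes. Against wild type 3 inhibitors were lower and 0 higher without overlap, beside 9.2% and 5.86% of all tested probes.

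Precursors of peptides that act on Mas-related receptors gave 1 gene without overlap against P61S. Of 9 tested genes 1 was lower and 0 higher without overlap against P61S, beside 8.23% and 5.75% of all tested probes. The list median was -0.08. The lower gene was Adcyap1, the PACAP gene, at -0.34 (SE 0.0842, limma adjusted p = 0.845) against P61S and -0.23 against wild type. Penk, the proenkephalin gene that holds the Mrgprx1 ligands, differed by -0.04 against P61S and -0.07 against wild type. Adm, the adrenomedullin gene, differed by -0.99 against P61S, but the groups overlapped. Penk was named for its role and Adm for its size, after their values were seen.

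Of 25 tested genes of Gq and arrestin signalling and coupled channels, 3 were lower and 1 higher without overlap against P61S. Over all tested probes 8.23% were lower and 5.75% higher in this comparison. Of the 25 genes 0 passed over all probes. Trpa1, the irritant-gated channel, read -4.97, -4.82 and -5.61 with P61S/R100E, -4.57, -4.18 and -4.52 with P61S, and -4.26 and -3.73 with wild type. That is -0.71 (SE 0.246, limma adjusted p = 0.999) against P61S and -1.13 (SE 0.275, limma adjusted p = 0.746) against wild type. Trpv1, the capsaicin channel, differed by -0.27 (SE 0.0954) and Rgs4, a brake on Gq signalling, by -0.32 (SE 0.090) against P61S. Other channels of the list did not fall, with Ano1 at 0.21 and Trpv4 at 0.05 against P61S. Trpv4 was named for its role after its value was seen. The list median was 0.04 against P61S and -0.10 against wild type, where 5 genes were lower and 2 higher without overlap (9.2% and 5.86% over all tested probes). The 2 higher ones were Ano1 (0.42, SE 0.162) and Plcb1 (0.16, SE 0.097).

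Itch neuron genes differed among themselves. Of 23 tested genes of non-peptidergic and itch neurons 6 were lower and 2 higher without overlap against P61S, beside 8.23% and 5.75% of all tested probes. Against wild type 5 were lower and 0 higher, beside 9.2% and 5.86%, and 0 passed over all probes. The lower ones had Nts, the neurotensin gene, at -1.05 (SE 0.149), Nppb, the natriuretic peptide gene of itch neurons, at -0.76 (SE 0.143), and Osmr, a subunit of the receptors for oncostatin M and interleukin 31, at -0.48 (SE 0.253). The 2 higher ones against P61S were Il13ra1 (0.31, SE 0.0964) and S1pr1 (0.25, SE 0.134). Some genes of non-peptidergic neurons are given for their role, chosen after their values were seen. P2rx3, an ATP-gated channel, differed by -0.08 against P61S, Runx1 by 0.05 and Gfra2, a GDNF family co-receptor, by -0.01. Scn11a, a sodium channel, differed by -0.10 and Ret by -0.15. Other genes of the list differed by more from P61S, such as Grik1 at -0.47, Trpm3 at -0.29 and Npy2r at -0.28. The list median was -0.08 against P61S and -0.11 against wild type. Between P61S and wild type 2 of these genes were lower and 3 higher without overlap, beside 9.23% and 7.39% of all tested probes.

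**Figure D4:**
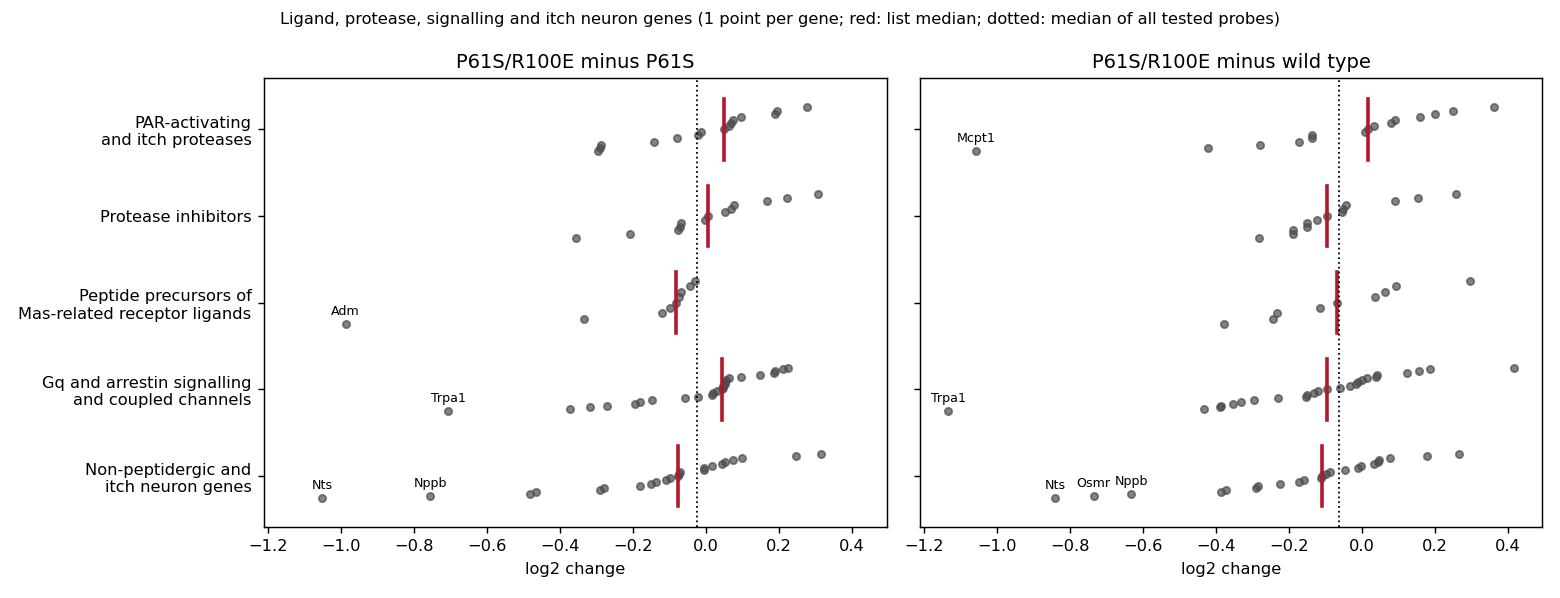
Log2 change of each tested gene in 5 lists, P61S/R100E minus P61S at the left and P61S/R100E minus wild type at the right, with the list median as a red bar and the median of all tested probes as a dotted line. List medians lie between -0.11 and 0.05, and single genes such as Nts, Nppb and Trpa1 lie far to the left of them.

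Markers of other cell types were compared beside the receptors. The summed signal of 14 pan-neuronal markers, as multiples of the 75th percentile, ran from 205 to 221 with P61S/R100E, 191 to 220 with P61S and 201 to 227 with wild type, so the groups overlapped. Their median log2 change against P61S was 0.00, with Tubb3, the neuronal tubulin gene, highest at 0.35 (SE 0.0757, limma adjusted p = 0.654) and Syt1, a synaptotagmin gene, lowest at -0.39. Against wild type their median was -0.08, from -0.77 for Syt1 and -0.57 for Thy1 up to 0.20 for Gap43. There 1 of the 14 was lower and 3 were higher without overlap, beside 9.2% and 5.86% of all tested probes. Sums of 6 mast cell markers, which matter because mast cells release tryptase, ran from 0.165 to 0.212 with P61S/R100E, 0.159 to 0.258 with P61S and 0.200 to 0.233 with wild type, and the defining markers Fcer1a, Ms4a2 and Cma1 were too dim to be tested. Of the 6, 3 were lower and 0 higher without overlap with P61S/R100E than with wild type, beside 9.2% and 5.86% of all tested probes. They were Cpa3 (-0.51, SE 0.41), Gata2 (-0.46, SE 0.234) and Tpsb2 (-0.28, SE 0.21), all with wide errors. The others differed by -0.16 for Kit, -0.14 for Tpsab1 and 0.05 for Hdc. Against P61S 0 of the 6 were lower and 0 higher without overlap, beside 8.23% and 5.75% of all tested probes. PAR2 is also an epithelial receptor, and 3 of 8 epithelial markers were higher without overlap with P61S/R100E than with P61S, beside 5.75% of all tested probes. These were Krt19 (1.61, SE 0.364), Cldn4 (0.84, SE 0.203) and Krt14 (0.66, SE 0.0897), and 0 of the 8 passed over all probes. The other 5 had changes below 0, at -1.14 for Krt18, -0.59 for Krt8, -0.26 for Epcam, -0.23 for Cdh1 and -0.01 for Krt5. The list median was -0.12. The Krt18 value rests on P61S replicate 2, at -2.97 beside -6.12 and -6.10 on the other P61S arrays. Against wild type the same 3 markers were higher without overlap, beside 5.86% of all tested probes. There Krt18 differed by 0.12, Epcam by 0.03, Cdh1 by -0.05, Krt5 by -0.16 and Krt8 by -0.49, with a list median of 0.08. The summed epithelial signal was 1.13 to 1.49 with P61S/R100E, 1.15 to 1.48 with P61S and 1.07 to 1.14 with wild type. The part of cell composition in the receptor differences was not tested beyond these values.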

How the data were processed

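The scanner file of each of the 8 arrays held, per the file headers, processed spot intensities made by Agilent Feature Extraction 10.7.3.1 (protocol GE1_107_Sep09, design 028279, built on rn4), and the steps behind them are not given in the sources used here. The deposited log2 table of 22018 probes correlated with log2 scanner signals at 0.999 or more, with medians of 9.82 to 10.3 across arrays. It was scaled on the 75th percentile and used as an alternative.

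An outlier mark by the software removed a spot, except where every spot of the probe had one, and the others were averaged as log2 signal minus log2 of the 75th percentile. Testing needed a probe to be well above background on all arrays of 1 group or more (23585 of 30367 probes). A single limma fit (3.58.1, R 4.3.3) of 8 arrays and 3 groups, with 5 residual degrees of freedom, gave changes, with Benjamini-Hochberg adjustment across the tested probes (threshold 0.05). It was tested on simulated data. Accessions gave 17998 probes a symbol. The brightest tested probe stood for a gene.

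The members and lists were chosen with earlier results of these arrays known. Named genes were all probes of both receptor families, per list, comparison and direction up to 3 non-overlapping genes with the largest change, and the 5 genes most correlated with each measured receptor. Not all are printed, and a few genes named outside the rule are said to be so. The name of the human protein is not reported here. The normexp alternative used the median spot signal because the files held no mean. Other alternatives were quantile normalization, median centring, both filters, outlier spots kept, blocks for replicate number and slide row, slide column as covariate, 2-group fits, a variance trend, and each array left out. Python 3.11.15, pandas 2.3.3 and matplotlib 3.10.9 made tables and figures.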

Additional observations from a re-analysis of the deposited data

How the results depend on the processing

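The count of probes past the adjusted threshold was 0 in each comparison and stayed at 0 with median centring, no filter, outlier spots kept, the replicate number as a block, slide row as a block, slide column as a covariate and fits of only the groups compared. It was 1 in both comparisons of P61S/R100E with the deposited values and with the filter on all arrays (Lrat each time), and 1 in both comparisons with wild type under quantile normalization and under normexp with quantile normalization (a probe without a gene name). A variance trend with robust hyperparameters gave 6 against P61S and 1 against wild type for P61S/R100E. Leaving out each array gave 0 to 3 for P61S/R100E against P61S, the 3 without P61S replicate 2, 0 to 1283 for P61S/R100E against wild type and 0 to 298 for P61S against wild type. The highest counts came with replicate 1 of wild type left out, where the array that stood apart was alone in its group. In that fit the change of P61S/R100E against wild type was -0.68 for F2rl1, -0.82 for Mrgprb5, and -1.19 and -0.74 for the brighter and dimmer Mrgprx1 probes. Nothing is read from this, since 1 array stood for wild type and the receptors were chosen on these contrasts. Under the alternatives that kept both wild type arrays, no receptor described here was called.

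Deviations from the group mean of same-numbered P61S/R100E and P61S arrays correlated at 0.051, -0.021 and 0.008. With the same-numbered wild type arrays they correlated at 0.104 and 0.167 for P61S and at -0.158 and -0.198 for P61S/R100E. Not every array correlated best with its own number. Deviations sum to 0 within a group, so these values cannot settle if replicate numbers pair the samples. With the block, 851 probes against P61S had an unadjusted p under 0.05 beside 946 without it. F2rl1 stayed below P61S (-0.77 to -0.57) and below wild type (-0.84 to -0.59) under all 20 alternatives, and Mrgprb5 likewise (-0.87 to -0.37 and -0.82 to -0.30), nearest 0 with the outlier spot in use. Mrgprx1 was below both on its brighter probe under all 20, and its dimmer probe below wild type under 17 of 18, with 0.00 under normexp. Several of these alternatives left the estimate as it was. Leaving out 1 array cannot change its sign where the groups do not overlap. Nothing is read from these counts of alternatives, as the receptors were chosen on these contrasts. With normexp and quantile normalization, which uses the median spot signal with an offset, Mrgprb5 was at -0.41 and -0.36 and F2rl1 at -0.57 and -0.59. The causes were not tested. Mrgprd was well above background on 1 of 8 arrays, and the dimmer Mrgprx1 probe on 6 of 8.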
